A study of Mus musculus with 6 samples.

Results

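The genes described here are 10 genes of platelet-derived growth factor (PDGF) signalling and of myofibroblasts, the contractile, matrix-making cells of scarring tissue. They are the PDGF chain genes Pdgfa, Pdgfb, Pdgfc and Pdgfd, the receptor genes Pdgfra and Pdgfrb, the smooth muscle and myofibroblast genes Acta2, Tagln and Myh11, and the matrix gene Postn. They were taken by name from the 19937 mouse genes measured on Affymetrix arrays, and each was read by a single probe set. Whole-kidney RNA made up 3 NICD1 samples and 3 samples labelled wild-type littermate control, with 1 array per sample. NICD1 mice carry the transgenes Pax8rtTA and TREICNotch1, a tetracycline-type activator under Pax8 and a responder that encodes the intracellular part of Notch1, so that the active receptor fragment is switched on in the tubule epithelium. The inducing agent, its duration, and the age, sex and strain of the mice are not given in the sources used here. The samples were collected for work on Notch signalling in kidney cancer of the clear cell type, and the comparison asks what the activated receptor does to gene expression in the kidney.

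PDGF chains are secreted as dimers that bind receptor tyrosine kinases on mesenchymal cells. PDGF-A and PDGF-B are released ready to bind, whereas PDGF-C and PDGF-D are released latent and must be cut by extracellular proteases. In the kidney the receptors lie mainly on mesangial cells, pericytes and interstitial fibroblasts, and PDGF receptor beta, bound by PDGF-B and PDGF-D, is known for driving their growth and their conversion to myofibroblasts.

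Of the 10 genes, 7 were higher and 1 was lower in NICD1 kidneys, and 2 did not pass the test (limma, Benjamini-Hochberg adjusted p under 0.05 over all genes). Among all genes tested, 17.8% were called higher and 14.9% lower, together 32.7%. The genes of PDGF-B, PDGF-D, PDGF-A, PDGF receptor beta, Tagln, Acta2 and periostin rose, and that of PDGF-C fell. Pdgfra and Myh11 were the pair that did not pass. All values are log2 expression, differences are NICD1 minus control, and folds are the larger group mean over the smaller. The median difference of the 10 genes was 0.77, beside 0.015 over all genes. The NICD1 values lay above all control values for 7 of the genes and below them for 1, where 23.7% and 19.7% of all genes were so separated, together 43.4%. These 10 genes were chosen with earlier results of the same arrays known, so their count is a description.

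**Figure D1:**
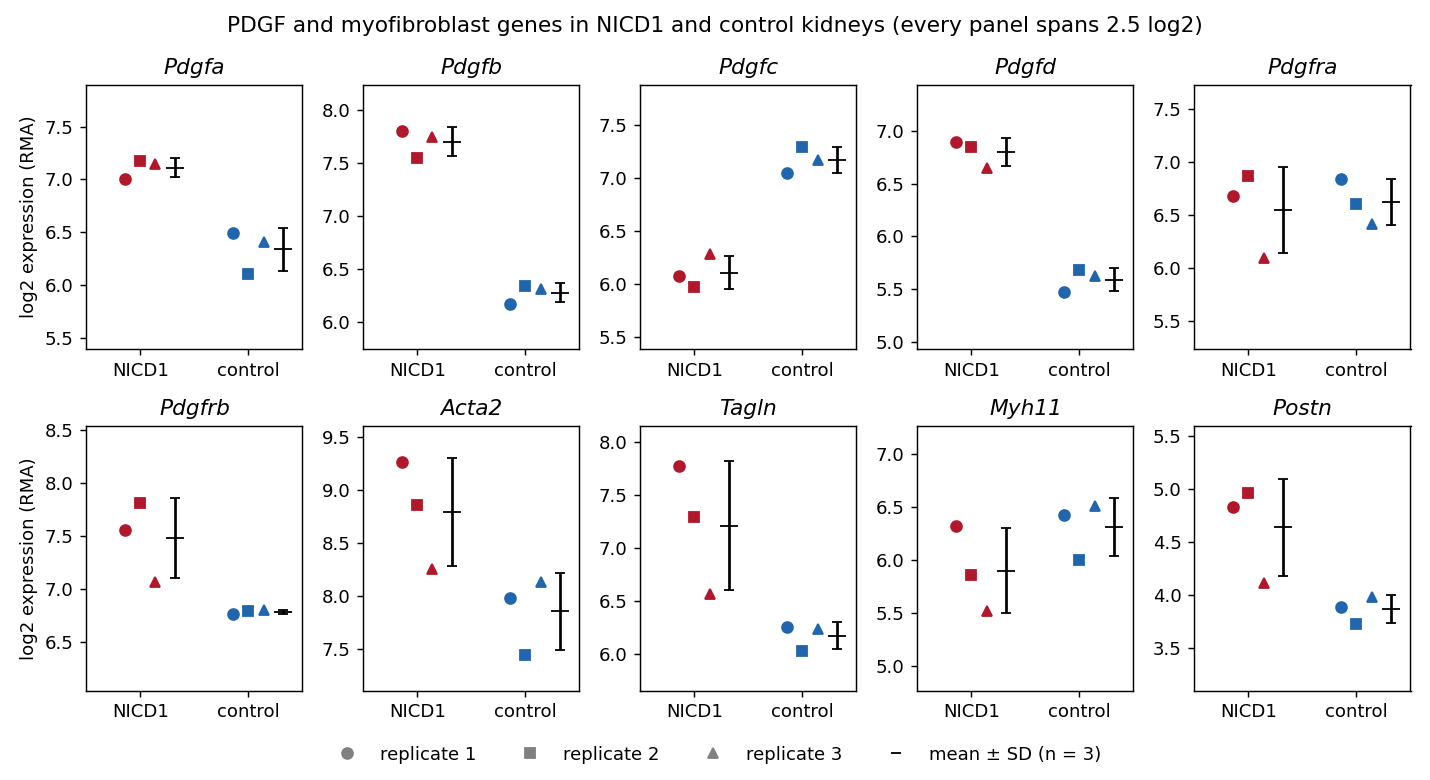
Log2 expression of each of the 10 genes (vertical axis, 2.5 log2 in every panel) in NICD1 arrays, left, and control arrays, right, with the mean and SD of 3 arrays beside the points. Pdgfb, Pdgfd and Pdgfc show tight, separated groups, whereas NICD1 replicate 3 is the lowest NICD1 array in Pdgfra, Pdgfrb, Acta2, Tagln, Myh11 and Postn.

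Arrays of the same group were closely alike, with Pearson correlations over 28187 probe sets of 0.986 to 0.990 within NICD1 and 0.991 to 0.993 within controls, against 0.927 to 0.945 between the groups. Notch1, the gene of the transgene, read 10.29, 10.30 and 9.99 in NICD1 replicates 1 to 3 and 6.66, 6.59 and 6.45 in the controls, higher in every NICD1 array. Whether its probe set lies within the transgene is not known here. All 8 listed proximal tubule markers, kidney-defining transporters and endocytic receptors among them, stood at 9.955 log2 or more in every control array, and all 8 fell in NICD1 kidneys. Over all genes, centring each array on its own median moved the median difference to -0.108 and the higher share of all calls to 39.4%, beside 54.4% in the deposited scale, but left 7 of the 10 genes higher and 1 lower.

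Among the ligands, Pdgfb showed the largest rise of the 10 genes. Pdgfb, which encodes the PDGF-B chain, read 7.81, 7.55 and 7.75 in NICD1 kidneys and 6.17, 6.34 and 6.32 in control kidneys. Every NICD1 array stood more than 1 log2 above every control array. The means were 7.70 ± 0.14 in NICD1 and 6.27 ± 0.09 in control (SD, n = 3 each), a 2.69-fold rise (1.43 log2, SE 0.11, adjusted p = 1.22e-05).

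Pdgfd, which encodes a latent chain that binds PDGF receptor beta, read 6.89, 6.84 and 6.64 in NICD1 kidneys and 5.47, 5.68 and 5.62 in control kidneys. The groups were again far apart, with the lowest NICD1 value in replicate 3. The rise was 2.30-fold (1.20 log2, SE 0.11, adjusted p = 3.78e-05).

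Pdgfa, which encodes the PDGF-A chain, rose less. It read 7.01, 7.18 and 7.14 in NICD1 kidneys and 6.49, 6.11 and 6.41 in control kidneys. The NICD1 arrays lay close together and above all controls, of which replicate 2 was the lowest. The rise was 1.71-fold (0.77 log2, SE 0.12, adjusted p = 0.00108).

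Pdgfc, which encodes the other latent chain, a ligand of PDGF receptor alpha, moved the opposite way. It read 6.07, 5.97 and 6.28 in NICD1 kidneys and 7.04, 7.29 and 7.17 in control kidneys. All NICD1 arrays lay below all controls. It fell 2.09-fold (-1.06 log2, SE 0.12, adjusted p = 0.000118). The calls of these 4 ligand genes held when any 1 array was left out, with differences of 1.38 to 1.51 for Pdgfb, 1.14 to 1.28 for Pdgfd, 0.66 to 0.85 for Pdgfa and -1.15 to -0.99 for Pdgfc.

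RefSeq promoter windows of build GRCm38.p6, 250 bases before to 50 after a gene's start, were at hand for 6 of the 10 genes, namely Pdgfa, Pdgfc, Pdgfd, Pdgfra, Acta2 and Postn. They were searched on both strands for TGGGAA, the core letters bound by RBPJ, through which activated Notch reaches DNA, and for the CArG box, the site of serum response factor on contractile genes. TGGGAA stood in 3 of the 8 windows of these 6 genes, beside 25.6% of 32851 windows of all genes. Those 3 were windows of Pdgfa, Pdgfd and Acta2. The CArG box stood in 1 of the 8, that of Pdgfc. The 3 ligand windows with a match to either motif are printed 5′ to 3′, with the matched letters in capitals. They are printed because their genes passed the test, upward for Pdgfd and Pdgfa and downward for Pdgfc.
Pdgfd (chr9:6168236-6168535, plus strand): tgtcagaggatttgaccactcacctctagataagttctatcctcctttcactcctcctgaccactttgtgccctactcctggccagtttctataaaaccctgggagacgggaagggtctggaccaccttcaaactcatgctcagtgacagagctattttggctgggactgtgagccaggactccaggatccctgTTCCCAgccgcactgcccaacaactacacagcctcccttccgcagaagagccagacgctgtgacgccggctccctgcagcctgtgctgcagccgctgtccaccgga
Pdgfa (chr5:138994232-138994531, minus strand): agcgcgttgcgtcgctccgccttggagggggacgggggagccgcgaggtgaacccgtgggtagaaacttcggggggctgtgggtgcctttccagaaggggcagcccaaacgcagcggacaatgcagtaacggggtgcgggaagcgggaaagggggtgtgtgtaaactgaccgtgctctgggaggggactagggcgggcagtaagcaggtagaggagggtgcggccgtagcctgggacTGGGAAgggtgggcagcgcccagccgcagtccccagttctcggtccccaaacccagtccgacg
Pdgfc (chr3:81036166-81036465, plus strand): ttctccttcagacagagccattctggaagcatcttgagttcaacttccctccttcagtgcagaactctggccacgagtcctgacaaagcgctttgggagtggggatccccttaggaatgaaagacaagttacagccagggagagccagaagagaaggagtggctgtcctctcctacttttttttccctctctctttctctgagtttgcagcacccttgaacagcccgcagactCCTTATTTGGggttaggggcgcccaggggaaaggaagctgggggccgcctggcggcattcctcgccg
In Pdgfd the capitals mark TGGGAA read on the opposite strand, at -56 to -51 from the start, and in Pdgfa they mark it on the printed strand, at -13 to -8 from the start of the first of 2 listed windows. The capitals in Pdgfc mark a CArG box at -17 to -8 from the start, a match that 1.63% of all windows held. These are letter matches only, and no binding was measured.

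Of the receptor genes, Pdgfrb passed the test and Pdgfra did not. Pdgfrb, which encodes PDGF receptor beta, read 7.56, 7.81 and 7.07 in NICD1 kidneys and 6.76, 6.79 and 6.80 in control kidneys. The controls were almost equal, and NICD1 replicate 3 stood only slightly above them. The means were 7.48 ± 0.38 in NICD1 and 6.78 ± 0.02 in control (SD, n = 3 each), a 1.62-fold rise (0.70 log2, SE 0.17, adjusted p = 0.0114). Its difference was 0.90 without NICD1 replicate 3 and 0.53 without NICD1 replicate 2, and the call held in each.

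Pdgfra, which encodes PDGF receptor alpha, read 6.68, 6.86 and 6.09 in NICD1 kidneys and 6.84, 6.60 and 6.41 in control kidneys. The groups overlapped, and NICD1 replicate 3 was the lowest of all 6 arrays. The difference was -0.07 log2 with a 95% interval from -0.52 to 0.37 (adjusted p = 0.839). The sign turned without NICD1 replicate 3, at 0.15, without control replicate 1, at 0.04, and with array weights, at 0.08.

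**Figure D2:**
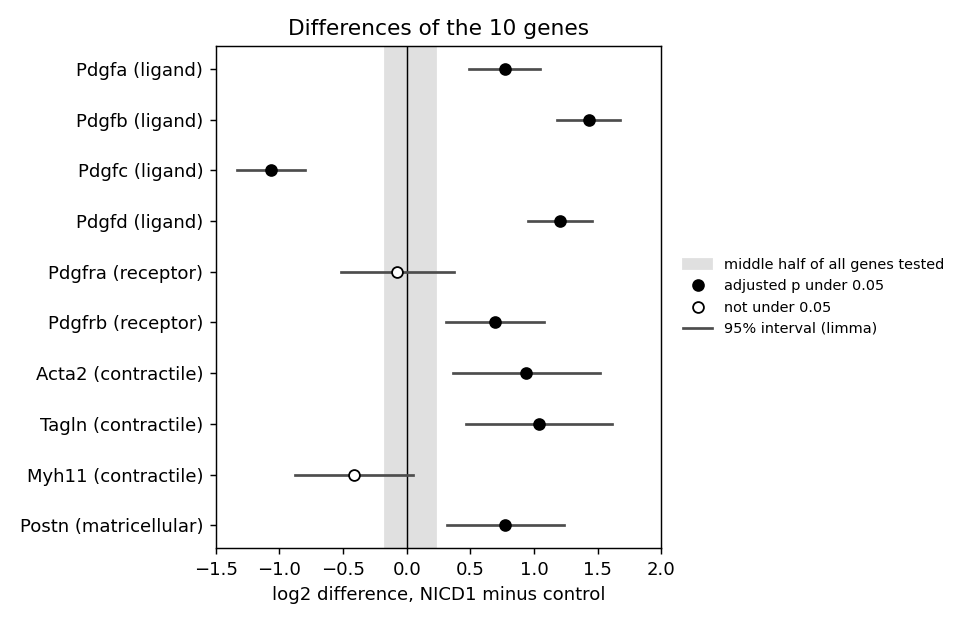
Log2 difference, NICD1 minus control, of each of the 10 genes (horizontal axis) with its 95% interval from limma, over a band between the quartiles of all 19937 genes, -0.17 and 0.23. Filled points passed the test, and the intervals of Pdgfra and Myh11 include 0.

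Proteins that release or hold PDGF also moved at the RNA level. Of 10 listed genes of PDGF activation and extracellular partners, 6 rose, 1 fell and 3 did not pass. That was 70% called beside 32.7% of all genes, with a median difference of 0.87 beside 0.015 over all genes. Plat, tissue plasminogen activator, which cuts PDGF-C, read 8.93, 8.32 and 8.55 in NICD1 kidneys and 6.64, 6.16 and 6.07 in control kidneys. Those groups were separated by more than 1 log2 (2.31 log2, adjusted p = 1.83e-05). Its substrate gene Pdgfc was the ligand gene that fell. St14, the membrane protease matriptase, which cuts PDGF-D, rose by 1.32 log2 (adjusted p = 2e-05), with 8.59, 8.58 and 8.56 in NICD1 against 7.42, 7.26 and 7.09 in control. Plau, urokinase, which also cuts PDGF-D, rose by 0.59 (adjusted p = 0.0269), a call that was lost without NICD1 replicate 2 (0.57) or 3 (0.42), without control replicate 1 (0.54) or 2 (0.57) and after centring (0.47). Under quantile normalization its difference was 0.97, with the call held. The matrix proteins Thbs1 and Sparc, the second a PDGF-binding protein, rose by 1.996 and 1.30 log2, and Lrp1, a co-receptor of PDGF receptor beta, by 1.16. Pcsk6, a convertase that trims PDGF precursors, fell by 1.47 log2 (adjusted p = 0.000151). The 3 that did not pass were the convertase gene Furin (-0.24), the co-receptor gene Nrp1 (0.13) and the receptor-like gene Pdgfrl (0.51). Pdgfrl passed as higher without NICD1 replicate 3 (0.75) and with array weights (0.55), and stood at 0.33 without NICD1 replicate 1. Its values lay under the median of all genes on every array.

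Of 17 genes of receptor signalling and its attenuation, 5 rose, 0 fell and 12 did not pass, or 29.4% called beside 32.7% of all genes, with a median of 0.22. Those that rose were the receptor-type phosphatase gene Ptprj (0.80), the ubiquitin ligase gene Cbl (0.75), which marks activated receptors for breakdown, the adaptor genes Nck1 (0.88) and Shc1 (0.54), and the kinase gene Src (0.54). The share of calls in this list was near that of all genes.

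Of the contractile genes, Acta2 and Tagln passed the test and Myh11 did not. Acta2, alpha smooth muscle actin, the usual marker of myofibroblasts, read 9.26, 8.86 and 8.25 in NICD1 kidneys and 7.98, 7.44 and 8.13 in control kidneys. All NICD1 arrays lay above all controls, but NICD1 replicate 3 stood just above control replicate 3. The means were 8.79 ± 0.51 in NICD1 and 7.85 ± 0.36 in control (SD, n = 3 each), a 1.92-fold rise (0.94 log2, SE 0.26, adjusted p = 0.0188). The call was lost without NICD1 replicate 1 (0.70, adjusted p = 0.0508), NICD1 replicate 2 (0.90, adjusted p = 0.0563) or control replicate 2 (0.73, adjusted p = 0.0732), and its difference was 1.21 without NICD1 replicate 3. Over all alternatives its adjusted p ran from 0.00296 to 0.0732.

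The Acta2 window is printed because it is the contractile member whose gene passed and whose sequence was at hand. Its capitals mark, from the left, a CArG-like stretch with 1 base of G or C among its 6 middle bases, at -84 to -75 from the start, and a second such stretch, at -34 to -25, that runs into TGGGAA at -27 to -22.
Acta2 (chr19:34255324-34255623, minus strand): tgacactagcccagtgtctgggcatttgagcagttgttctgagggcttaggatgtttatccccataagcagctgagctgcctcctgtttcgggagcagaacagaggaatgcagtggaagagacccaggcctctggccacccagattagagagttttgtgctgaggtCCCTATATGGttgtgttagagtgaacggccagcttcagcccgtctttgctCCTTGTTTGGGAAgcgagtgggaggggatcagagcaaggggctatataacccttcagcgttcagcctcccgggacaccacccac
Both stretches read as matches on either strand. The allowance of 1 G or C was chosen after this sequence was seen. A match of that kind stood in 2 of the 8 windows searched and in 9.98% of all windows. The strict CArG box stood in 1 of the 8 and in 1.63% of all. The windows of Pdgfra and Postn held neither motif.

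Tagln, transgelin, an actin-binding protein of smooth muscle, read 7.78, 7.29 and 6.56 in NICD1 kidneys and 6.25, 6.03 and 6.24 in control kidneys. The order of the NICD1 arrays was that of Acta2, and NICD1 replicate 3 again stood nearest the controls. The rise was 2.06-fold (1.04 log2, SE 0.26, adjusted p = 0.0114), and the difference ran from 0.76 without NICD1 replicate 1 to 1.36 without NICD1 replicate 3, with the call held.

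Myh11, the myosin heavy chain of mature smooth muscle, read 6.32, 5.85 and 5.52 in NICD1 kidneys and 6.43, 6.00 and 6.51 in control kidneys. The groups overlapped, although 2 NICD1 arrays lay below all controls. The difference was -0.41 log2 with a 95% interval from -0.88 to 0.05 (adjusted p = 0.174). It passed as lower without NICD1 replicate 1 (-0.625, adjusted p = 0.025), and its adjusted p ran from 0.025 to 0.45 over all alternatives.

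Within each array, the log2 values of paired genes were subtracted and the result compared between groups. Acta2 minus Myh11 was 2.94, 3.01 and 2.73 in NICD1 arrays and 1.56, 1.44 and 1.62 in control arrays, a shift of 1.35 log2. Tagln minus Myh11 was 1.46, 1.44 and 1.04 in NICD1 arrays and -0.18, 0.02 and -0.27 in control arrays, a shift of 1.45. The groups were separated in both, and NICD1 replicate 3 stood with the other NICD1 arrays. Pdgfrb minus Pdgfra was 0.88, 0.95 and 0.98 in NICD1 arrays and -0.08, 0.18 and 0.38 in control arrays, a shift of 0.77. Pdgfb minus Pdgfa was 0.80, 0.37 and 0.61 in NICD1 arrays and -0.32, 0.23 and -0.10 in control arrays, a shift of 0.66. Each of the 4 comparisons had an exact two-sided permutation p of 0.1, the smallest that 3 arrays against 3 can give, and 0.1 after adjustment over the 4. None of the 4 could pass at this size, and the pairs were chosen with results of these arrays known, so the shifts are descriptions. The level of such a difference in 1 group has no meaning, because each probe set has its own brightness.

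**Figure D3:**
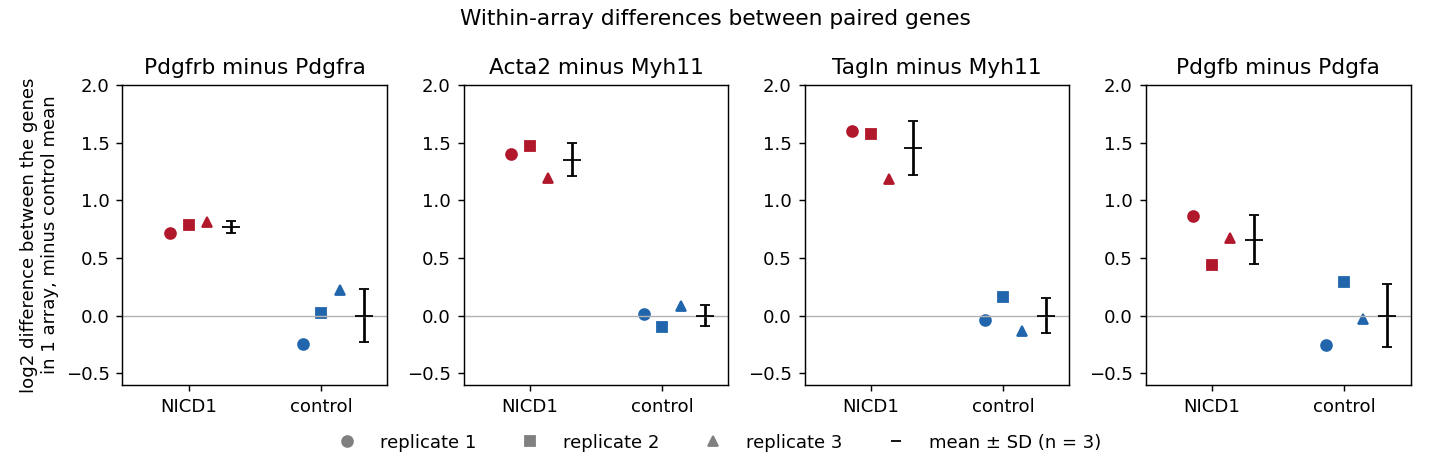
Difference in log2 expression between the genes of a pair within each array, set to 0 at the control mean (vertical axis), in NICD1 arrays, left, and control arrays, right, with the mean and SD of 3 arrays. The NICD1 arrays stand above the controls in all 4 pairs, by 0.66 to 1.45 log2 on average.

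Of 18 other smooth muscle contractile genes, 9 rose, 0 fell and 9 did not pass (50% called beside 32.7% of all genes, median 0.45). The rises were led by the actin-linking and actin-covering proteins Actn1 (2.87 log2), Flna (1.80), Tpm1 (1.75) and Vcl (1.36), which epithelial cells and other cells also make. The other genes that rose were Csrp1 (1.12), Cald1 (0.98), Smtn (0.72), which encodes smoothelin of contractile smooth muscle, Itga1 (0.42) and Actg2. Actg2, the gamma actin of smooth muscle, rose by 0.49 log2 (adjusted p = 0.00386), but lay under the median of all genes on every array. Acta2 and Actg2 encode closely alike actins, and probes for one might read the other. That was not tested. Among those that did not pass, the calponin gene Cnn1 and the myosin light chain gene Myl9 stood at 3.94 and 6.15 in NICD1 and at 4.21 and 6.54 in control (adjusted p = 0.0904 and 0.217). Cnn1, which lay under the median of all genes on every array too, passed as lower after centring (-0.40). The difference of Myl9 ran from -0.57 to -0.13 when 1 array was left out, the second without NICD1 replicate 3. Also short of the threshold were Cnn2 (0.50), Tpm2 (0.25), Des (0.08), Lmod1 (0.03), Kcnmb1 (0), Mylk (-0.13) and Synpo2 (-0.30). Of these, Tpm2, Des, Lmod1, Kcnmb1 and Synpo2 lay under the median of all genes on every array. Of 14 transcription factors of smooth muscle and myofibroblasts, 4 rose, 2 fell and 8 did not pass. That was 42.9% called beside 32.7% of all genes (median 0.07). Runx1 rose by 1.88 log2, the TGF-beta effector Smad3 by 0.73, and Mrtfa and Mrtfb, co-factors of serum response factor, by 0.66 each. Srf, the gene of serum response factor, and Myocd were among the 8 that did not pass (0.28 and 0.11). Myocd lay under the median of all genes on every array. The mesenchymal factors Tcf21 and Meox1 fell by 0.71 and 0.51 log2. The call of Tcf21 was lost without control replicate 1 (-0.66) or 2 (-0.65), and that of Meox1 without NICD1 replicate 1 (-0.44) or 3 (-0.51) or control replicate 3 (-0.35).

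Postn, periostin, a matrix protein that activated fibroblasts secrete in healing and scarring tissue, read 4.83, 4.97 and 4.11 in NICD1 kidneys and 3.89, 3.72 and 3.98 in control kidneys. NICD1 replicate 3 stood just above the highest control. The rise was 1.71-fold (0.77 log2, SE 0.20, adjusted p = 0.0161), and its call was lost without NICD1 replicate 2 (0.61, adjusted p = 0.0579) or control replicate 2 (0.70, adjusted p = 0.0628). Over all alternatives its adjusted p ran from 0.000346 to 0.0628. Postn lay under the median of all genes on all 6 arrays, where the other 9 genes lay above it, and no detection calls were at hand.

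Of 18 genes of TGF-beta signalling and of matrix-regulating proteins made by myofibroblasts, 14 rose, 0 fell and 4 did not pass. That was 77.8% called beside 32.7% of all genes (median 1.21). Timp1, an inhibitor of matrix proteases, rose by 3.08 log2, Tnc, tenascin C, by 1.85, Tgfbi by 1.59 and Tgfb1, the main profibrotic cytokine of the family, by 1.47. The collagen cross-linking enzyme Lox read 6.41, 6.92 and 5.07 in NICD1 kidneys and 3.63, 3.33 and 3.41 in control kidneys, again with the lowest NICD1 value in replicate 3 (2.68 log2, adjusted p = 0.000531). The 4 that did not pass were Loxl1 (0.35), Cthrc1 (0.12), Itgav (0.05) and Tgfbr2 (0.01).

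The rises of Pdgfrb, Acta2, Tagln and Postn were not equal across the NICD1 arrays. NICD1 replicate 3 was the lowest NICD1 array for 7 of the 10 genes, namely Pdgfd, Pdgfra, Pdgfrb, Acta2, Tagln, Myh11 and Postn. Over all genes replicate 3 was the lowest for 33.8%, and among genes called higher for 47.8%. Above the control mean, Acta2 stood 1.41, 1.01 and 0.40 log2 higher in NICD1 replicates 1 to 3, Tagln 1.605, 1.12 and 0.39, Pdgfrb 0.78, 1.03 and 0.28, and Postn 0.97, 1.1 and 0.25. The SD over the NICD1 arrays was 0.38 to 0.61 for the receptor, contractile and matrix genes, but 0.09 to 0.16 for the ligand genes. Pdgfb stood 1.54, 1.28 and 1.48 log2 above the control mean, Pdgfa 0.67, 0.84 and 0.80, and Pdgfd 1.30, 1.252 and 1.05.

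**Figure D4:**
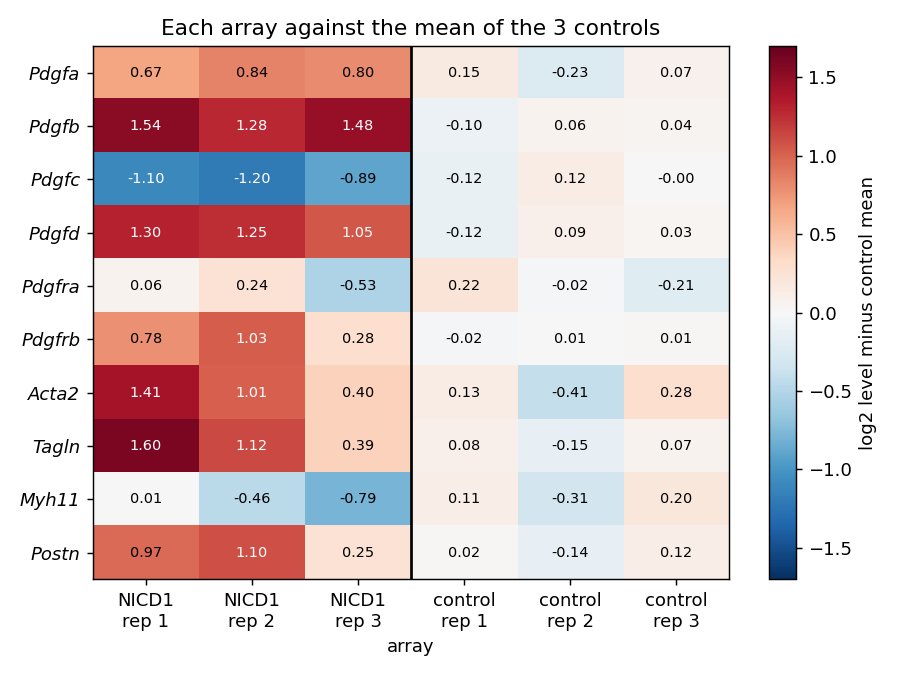
Log2 level of each of the 10 genes (rows) in each array (columns, NICD1 left of control) minus the mean of the 3 control arrays, as colour and number. Ligand genes are alike in the 3 NICD1 arrays, while Pdgfra, Pdgfrb, Acta2, Tagln, Myh11 and Postn are lowest in NICD1 replicate 3.

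Markers of other cell types differed between the groups and between the NICD1 arrays too, and in whole kidney fewer cells of a type and less RNA per cell cannot be told apart. Of 8 macrophage markers, 7 rose, 0 fell and Csf1r did not pass (-0.05), or 87.5% called beside 32.7% of all genes. Their mean log2 level was 7.33, 6.80 and 6.46 in NICD1 replicates 1 to 3, beside 4.81 to 4.95 in controls. Lyz2, Cd14, Itgam and C1qa led, at 3.94, 2.79, 2.41 and 2.21 log2. Of 10 endothelial markers, 0 rose, 5 fell and 5 did not pass, or 50% called beside 32.7% of all genes. Those that fell were the receptor genes Tek (-1.77), Kdr (-1.54) and Tie1 (-0.65), with Emcn (-1.22) and the glomerular gene Ehd3 (-0.89). The 5 that did not pass were Pecam1 (-0.67), Plvap (-0.605), Eng (-0.20), Cdh5 (-0.04) and Flt1 (0.24). The mean level of the 10 endothelial markers was 6.61, 6.54 and 5.85 in NICD1 replicates 1 to 3, beside 7.02 to 7.15 in controls. Replicate 3 was thus the lowest there as well. All 8 proximal tubule markers fell, where 14.9% of all genes were called lower. Their mean level was 6.73, 7.38 and 7.81 in NICD1 replicates 1 to 3 and 10.93 to 11.03 in controls. The falls were largest for the transporter genes Slc22a6 (-5.51), Slc22a8 (-5.41) and Slc34a1 (-4.73). Of 5 platelet markers, another source of PDGF, 0 were called, with a mean level of 4.07 to 4.44 in NICD1 and 4.25 to 4.49 in controls. None of 7 striated muscle, 5 adipocyte, 5 adrenal and 5 urothelial markers was called either. No platelet marker and no marker of these other lists lay above the median of all genes on all 6 arrays. Their low signal limits what the lack of calls can show. The part that any of these cell types had in the values of the 10 genes was not tested.

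Markers of the mesenchyme were not uniform. Of 16 fibroblast and collagen markers, 9 rose, 0 fell and 7 did not pass, or 56.2% called beside 32.7% of all genes. Their median difference was 0.56. Their mean level was 6.60, 6.47 and 6.20 in NICD1 replicates 1 to 3 and 5.47 to 5.58 in controls. Col1a1, Fn1, Col3a1 and Vim rose by 2.96, 2.84, 2.01 and 2.0 log2. Dcn, a proteoglycan gene of resting fibroblasts, read 7.15, 7.53 and 5.45 in NICD1 kidneys and 7.52, 7.40 and 7.53 in control kidneys, and did not pass (adjusted p = 0.231). Its difference was -0.77, and -0.14 without NICD1 replicate 3. The others that did not pass were Mfap5 (0.47), S100a4 (0.16), Thy1 (0.135), Fap (0.03), Pi16 (-0.09) and Lum (-0.295). Except for Dcn, the fibroblast and collagen markers that did not pass lay under the median of all genes on every array. Of 13 pericyte, mesangial and renin cell markers, 3 rose, 3 fell and 7 did not pass, or 46.2% called beside 32.7% of all genes. Their median difference was 0.11, and their mean level was 5.69 to 5.99 in NICD1 and 5.31 to 5.51 in controls. Those that rose were Heyl (4.001 log2), Notch3 (2.25) and Mcam (1.011), of which Heyl and Notch3 are also Notch targets. Those that fell were the mesangial integrin gene Itga8 (-0.93), the pericyte channel gene Abcc9 (-0.60) and the stromal factor Foxd1 (-0.36). Foxd1 lay under the median of all genes on every array. The calls of Abcc9 and Foxd1 were lost without any 1 of several arrays, control replicate 1 among them (-0.54 and -0.28). Abcc9 stood at -0.39 without NICD1 replicate 3 and lost its call with array weights too (-0.43). The pericyte genes Rgs5 and Cspg4 did not pass (0.31 and 0.21). Rgs5 passed as higher without NICD1 replicate 3 (0.67) and stood at 0.02 without NICD1 replicate 1, and Cspg4 ran from 0.13 to 0.32 when 1 array was left out.

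**Figure D5:**
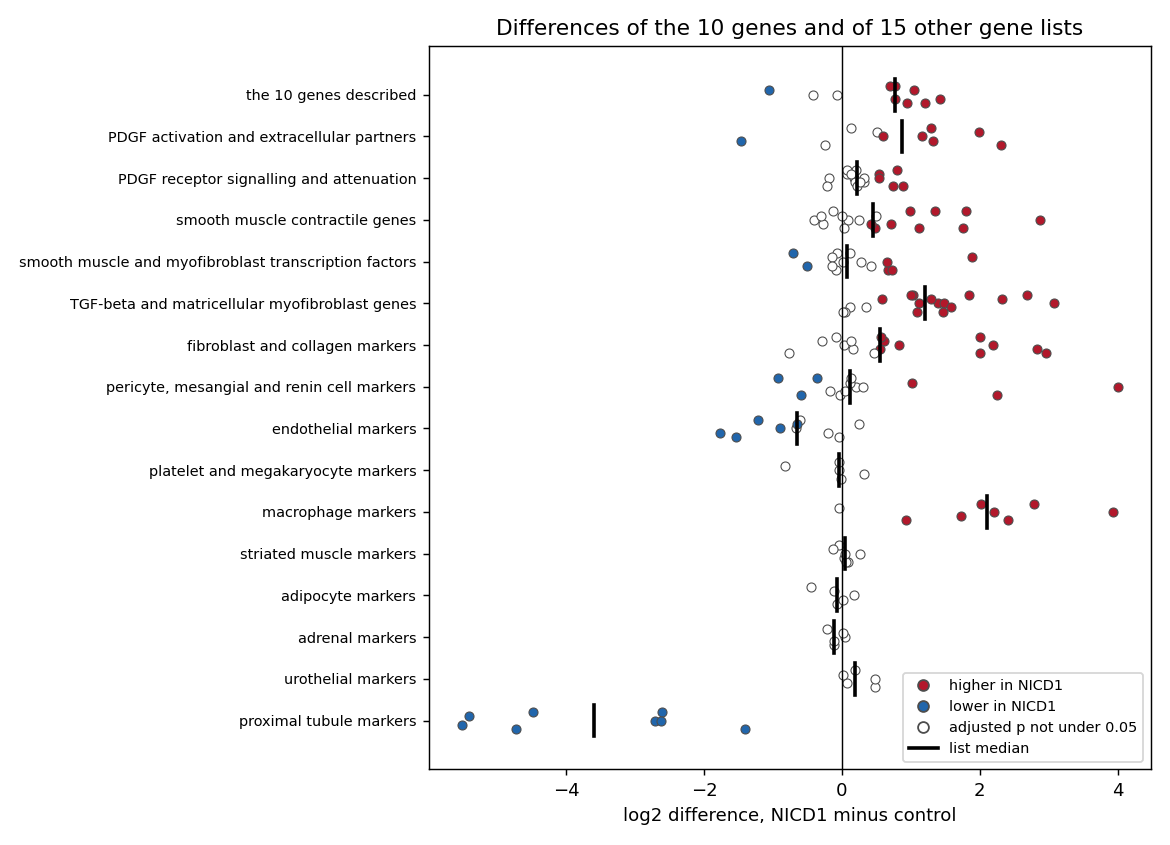
Log2 difference, NICD1 minus control (horizontal axis), of each gene in the set of 10 and in 15 other lists (rows), coloured by call, with the list median as a bar. The medians run from -3.60 for proximal tubule markers to 2.11 for macrophage markers, with 0.77 for the 10 genes.

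Of all genes with a symbol that is not a provisional one such as a Gm number or a Rik name, those whose profile over the 6 arrays, centred on the gene's mean, lay nearest that of Pdgfrb were Hexa, Rarb and Trp53inp1, at a root mean square difference of 0.080, 0.085 and 0.087 log2. The nearest to Acta2 were Hacd4, Tagln and Adam19, at 0.158, 0.160 and 0.161. The 6 arrays share the group difference and the low NICD1 replicate 3, so this likeness is a description. The calls of Rarb and Adam19, at 0.69 and 0.72 log2, were lost after centring (0.57 and 0.60) and without most single arrays, with the lowest values at 0.45 without NICD1 replicate 2 for Rarb and at 0.47 without NICD1 replicate 1 for Adam19.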

How the data were processed

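Whole-kidney RNA of 3 NICD1 and 3 control samples was hybridised to 1 Affymetrix array each. Per the labels' protocols, RNA was prepared with TRIzol, labelled with a one-cycle kit, and the raw files were normalized with the RMA16 algorithm in GeneSpring. The deposited values are on the log2 scale, 1 per probe set. RMA compresses the differences of dim genes and removes most shifts shared by all genes. No detection call, scan date or batch is given for the arrays, whose number limits the precision. Of 34760 probe sets, 6573 numbered below the lowest annotated one were left out. Symbols came from the platform annotation, with 21640 probe sets of 1 symbol, 1321 of several, which were not named, and 5226 without one. Each gene was read by its probe set with the highest mean over the 6 arrays, and all 10 genes described had a single probe set. The labels number the samples of a group without saying that each came from its own mouse, so p-values measure the spread between these samples, which may be technical.

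The test was limma 3.58.1 (R 4.3.3), two-sided, with Benjamini-Hochberg adjustment over 19937 genes and a threshold of 0.05. In simulated arrays of that comparison with 19937 genes, 200 genes were changed. The test recovered 22.4% of those changed by 0.5 log2, 80.6% by 1 log2 and 98.5% by 2 log2. With so few changed genes the adjustment is stricter than in these data, where 32.7% of genes were called. Of 165 genes in 15 lists, 159 were measured, and the others were not analysed here. The 10 genes and the lists were chosen with earlier results of these data known. Of each list with a called gene, up to 4 measured genes with the lowest p were named, together with those needed for counts of 5 or fewer. Lists without a called gene were given as counts, although the rule would have named members of them too. Plau, Lrp1, Sparc, Actg2, Csrp1, Cald1, Smtn, Itga1, Cnn1, Myl9, Lox, Dcn, Rgs5 and Cspg4 were named after their values were seen. So were Mfap5, S100a4, Thy1, Fap, Pi16, Lum, Srf, Myocd, Cnn2, Tpm2, Des, Lmod1, Kcnmb1, Mylk and Synpo2. Promoter windows came from RefSeq, build GRCm38.p6. The alternatives were other choices of probe set, quantile normalization, centring on array medians, a fit without the dimmest 40% of genes, a trended robust variance, array weights, a threshold of 0.01, a minimum of 2-fold, a replicate block, and fits that each lacked 1 array.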

Additional observations from a re-analysis of the deposited data

How the results depend on the processing

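Of the 169 recomputed results of the 10 genes, 152 kept their direction and their side of the threshold. That count is a description, because many alternatives could not move a difference. Each of the 10 genes has a single probe set, so the choices of probe set changed only the adjusted p. The trended variance, the replicate block, the fit without dim genes and the stricter thresholds also left each difference as it was. The 4 ligand genes kept direction and call in every alternative except that Pdgfa was under 2-fold. Without 1 array, the number of the 10 genes called higher ran from 5 to 7 and the number called lower from 1 to 2, because Myh11 passed without NICD1 replicate 1. At a threshold of 0.01, and likewise with a minimum of 2-fold, 3 of the 10 genes were higher. The genes called higher in NICD1 numbered 927 and the genes called lower in NICD1 numbered 1057 with the minimum of 2-fold. The sign of Pdgfra turned with array weights (0.076), without NICD1 replicate 3 (0.153) and without control replicate 1 (0.037), with a range of -0.233 to 0.153 without 1 array, and that of Csf1r without NICD1 replicate 3 (0.03, range -0.174 to 0.03). Postn was not in the fit without the dimmest 40% of genes, nor were Pdgfrl, Actg2, Cnn1 and Foxd1. The shift of Acta2 minus Myh11 was 1.67 under quantile normalization. The cause was not tested for any of these. With the replicate block, 3219 genes were higher and 2762 lower, and 7 of the 10 genes were higher and 1 lower. Deviations of arrays with the same replicate number correlated at -0.07, -0.01 and -0.07. No shared shift was seen, but these values cannot show whether arrays of the same number were paired. The block moved no call of the 10 genes, but that of Foxd1 was lost (adjusted p = 0.073). Over all genes, leaving out 1 array gave 2816 to 3488 higher and 2459 to 2811 lower calls. With 3 arrays a group, the simulation missed most changes of 0.5 log2. Only 200 of its genes were changed, so the share missed in these data was not measured. The low signal of Postn limits its value.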
